A study of Mus musculus with 2 samples.

Results

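The genes described here are 44 genes of the actin cytoskeleton, of 55357 genes listed in the deposited count matrices. They were taken by symbol from a list of actins, Arp2/3 subunits, nucleation and elongation factors, monomer-binding, severing, capping, bundling and adhesion proteins, myosins and vimentin, and all 44 symbols were found. They were measured by single-cell RNA sequencing of CD45+ CD11b+ cells that had been sorted from the cerebral cortex of mice aged 8 weeks, either wild-type or lacking moesin (the X-linked gene Msn, C57BL/6 per the series' design text). Each genotype gave 1 library, made from the pooled cortices of 5 to 6 mice, so genotype and library cannot be told apart and no difference between genotypes has a replicate check. Sex, the wild-type strain and the deleted stretch of Msn are not stated in the labels, and no promoter or Cre driver is named.

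Actin filaments are built from actin monomers, which profilin and the thymosins hold in reserve. The Arp2/3 complex, switched on by proteins such as WASP and WAVE, starts branches on existing filaments, while cofilin and gelsolin cut them, capping protein stops their growth and fascin, plastin and filamin tie them into bundles and networks. Myosins pull on these filaments. In microglia, the resident macrophages of the brain, this machinery drives the constant movement of fine processes, phagocytosis and migration, and moesin, an ezrin-radixin-moesin (ERM) protein, links cortical actin to the plasma membrane.

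The wild-type library held 68576464 UMIs (unique molecular identifiers, each counting 1 captured transcript) in 5842 barcodes and the knockout library 67575835 UMIs in 9038 barcodes, of which 5574 and 7573 were kept, with medians of 7170 and 5455 UMIs. The libraries shared 13 barcodes, 12 of them among kept cells. Microglia-like cells numbered 5172 (wild-type) and 4520 (knockout), monocyte-like cells 81 and 818, and cells like border-associated macrophages 24 and 106. The last 2 classes are what remained after cells high in microglia marker RNA were left out as mixed. With those mixed cells kept, the monocyte-like class held 112 and 933 cells and the macrophage-like class 101 and 390, so most of the latter were left out. The names came from marker lists, so the markers describe the classes and do not test the names. P2ry12 stood at 2458 and 2456 CPM (a gene's UMIs per 1000000 UMIs summed over the class) in microglia-like cells. It was at 110.5 and 100.4 CPM in monocyte-like and 300 and 266 CPM in macrophage-like cells. Other markers were less even: Mrc1 was at 4565 and 1940 CPM but Pf4 at 3535 and 5362 CPM in macrophage-like cells. In monocyte-like cells Ccr2 was at 682 and 184 CPM, Ly6c2 at 1526 and 752 CPM and Ace at 190 and 362 CPM. Different clusters held most microglia-like cells of each library. In the wild-type library 3305 and 1378 cells fell into 2 clusters that held 72 and 13 knockout cells, and in the knockout library 2568 and 1625 cells fell into 2 others that held 133 and 76 wild-type cells. The genes leading the last of these included the stress and early response genes Hspb1, Atf3 and Fos, and a smaller cluster of 280 and 242 cells was led by histone genes. Monocyte-like cells also lay in different clusters, of which one with Ace and Treml4 among its leading genes (the patrolling type) held 35 and 604 cells and another led by Ly6c2, Ccr2 and MHC class II genes (called classical type here) 46 and 214. The latter is not a pure cell type, with the MHC class II gene H2-Aa at 4977 and 2866 CPM. Clustered without the highest doublet scores, 27 and 127 cells were led by Chil3 and Ly6c2. Another 42 and 128 were led by MHC class II genes and Cd209a, with more dendritic cell markers. The genes described here, Msn and the other cytoskeleton lists were left out of the genes used for clustering.

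Msn itself was at 321 CPM in wild-type and 20.2 CPM in knockout microglia-like cells, at 748 and 52.8 CPM in monocyte-like cells and at 197 and 17.6 CPM in macrophage-like cells. The knockout library was thus far lower in Msn in all 3 classes, with some Msn UMIs still counted.

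Many actin genes carry a CArG box, the site of serum response factor (SRF), close to their start, so the promoters were searched for it on both strands. RefSeq promoter windows of 300 bases (250 before to 50 after the start, GRCm38.p6) were matched for 40 of the 44 genes. A gene with several windows was counted if any of them held the box, and the 40 genes had 50 windows. A CArG box was found for 5 of the 40 genes (12.5%) and for 1.81% of 27025 genes. The windows with a match are printed because they hold 3 genes that were higher in the knockout library in microglia-like cells (Actg1, Arpc4 and Myl6) beside 1 that was among the lowest (Myo1e) and 1 that was barely detected there (Vcl). Capitals mark the CArG box, which starts 90, 250, 50, 32 and 227 bases before the gene start in the order shown.
Actg1, chr11:120348446-120348745, minus strand: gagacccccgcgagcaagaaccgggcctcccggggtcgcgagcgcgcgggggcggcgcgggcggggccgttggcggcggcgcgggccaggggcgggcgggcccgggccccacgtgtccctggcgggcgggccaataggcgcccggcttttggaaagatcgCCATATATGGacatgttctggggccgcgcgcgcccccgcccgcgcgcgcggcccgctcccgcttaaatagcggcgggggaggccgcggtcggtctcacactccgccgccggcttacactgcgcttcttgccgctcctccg
Arpc4, chr6:113377863-113378162, plus strand: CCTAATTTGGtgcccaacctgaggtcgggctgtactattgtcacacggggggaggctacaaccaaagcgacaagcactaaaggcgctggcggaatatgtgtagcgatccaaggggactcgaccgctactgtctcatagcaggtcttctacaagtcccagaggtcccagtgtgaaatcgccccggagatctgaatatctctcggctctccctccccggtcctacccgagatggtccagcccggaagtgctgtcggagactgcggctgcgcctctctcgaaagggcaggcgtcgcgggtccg
Myl6, chr10:128492960-128493259, minus strand: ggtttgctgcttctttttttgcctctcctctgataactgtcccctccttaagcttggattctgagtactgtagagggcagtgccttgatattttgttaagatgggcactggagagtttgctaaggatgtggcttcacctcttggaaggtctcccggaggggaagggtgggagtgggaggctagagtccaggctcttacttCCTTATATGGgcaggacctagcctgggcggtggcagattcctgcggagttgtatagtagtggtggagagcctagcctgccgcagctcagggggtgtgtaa
Myo1e, chr9:70207100-70207399, plus strand: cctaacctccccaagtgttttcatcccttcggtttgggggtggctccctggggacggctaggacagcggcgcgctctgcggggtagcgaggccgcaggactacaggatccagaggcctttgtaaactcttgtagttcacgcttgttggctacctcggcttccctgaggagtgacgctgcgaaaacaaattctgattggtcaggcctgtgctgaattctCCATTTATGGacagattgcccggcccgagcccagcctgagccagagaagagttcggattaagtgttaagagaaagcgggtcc
Vcl, chr14:20929148-20929447, plus strand: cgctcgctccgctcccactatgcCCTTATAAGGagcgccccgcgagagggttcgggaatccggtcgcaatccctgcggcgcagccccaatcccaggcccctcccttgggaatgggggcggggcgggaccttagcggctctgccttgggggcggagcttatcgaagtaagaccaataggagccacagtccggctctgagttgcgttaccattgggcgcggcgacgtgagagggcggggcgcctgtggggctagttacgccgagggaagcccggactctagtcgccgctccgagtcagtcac
The same windows held TATAAA in 7.5% of the 40 genes and 15.7% of all genes, CCAAT in 32.5% and 41.1%, and CCGGAAG in 35% and 9.93%, counted on both strands. Overlaps between motifs were not removed. These are matches of letters, and binding was not measured.

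In microglia-like cells, more of these genes stood higher in the knockout library than lower. UMIs were summed over the cells of a class in each library, and the CPM of knockout over wild-type cells, as a log2 ratio, was taken relative to the median of the 8699 genes that reached 10 CPM in either library, which was -0.29. At 1.5-fold by size, 16 of the 42 members measured were higher and 0 lower, where 14.7% of all genes were higher and 12% lower. The median relative log2 ratio of the 42 members was 0.44. Gsn and Vcl were under 10 CPM in both libraries and were not counted.

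Most genes had a lower CPM in the knockout library, so the scale moves these counts. On the plain CPM scale 8 members were 1.5-fold higher (Actg1, Arpc4, Tmsb10, Coro1b, Fscn1, Myl12a, Myl12b and Vim) and 7 were 1.5-fold lower (Wipf1, Lcp1, Flna and the 4 myosin heavy chains), against 4.09% and 30.1% of all genes, and the median ratio of the measured members was 0.15. The CPM of all 16 higher members was above that of wild-type cells on this scale too.

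**Figure D1:**
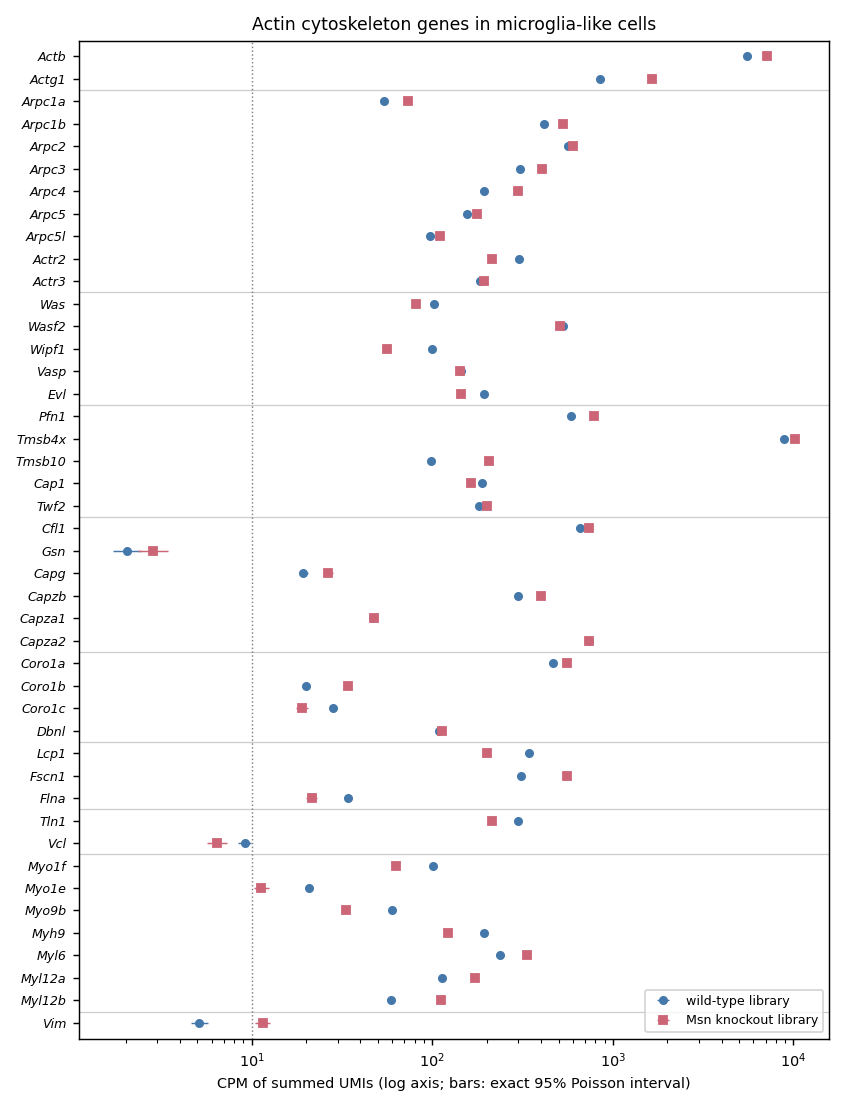
CPM of each of the 44 genes in microglia-like cells of the wild-type (circles) and Msn knockout (squares) library on a log axis, grouped by role, with exact 95% Poisson intervals and the floor of 10 CPM as a dotted line. Actg1, Tmsb10, Fscn1 and Myl12b lie further right in the knockout library, and Lcp1, Wipf1 and the heavy-chain myosins further left.

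Both cytoplasmic actins were higher in the knockout library. Actg1, gamma-actin (chromosome 11, 120236512 to 120239617, GRCm39), was at 851 CPM in wild-type and 1643 CPM in knockout microglia-like cells, a relative log2 ratio of 1.24 (counting interval 1.23 to 1.26). Actb, beta-actin (chromosome 5, 142888870 to 142892509), was at 5536 and 7094 CPM, with a ratio of 0.65 (0.65 to 0.66). All intervals are 95% and cover counting error only, since UMIs of 1 library do not show how mice differ. Gamma-actin made up 13.3% of the UMIs of both actins in wild-type cells and 18.8% in knockout cells.

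In the Arp2/3 complex 4 of 9 subunits were higher, 0 were lower and 5 stayed within 1.5-fold. Arpc4, a core subunit, was at 193 and 298 CPM with a relative log2 ratio of 0.92 (0.88 to 0.96). Arpc1a and Arpc1b, alternative forms of the ARPC1 subunit, had ratios of 0.73 and 0.65, and Arpc3 0.70. The actin-like subunits stood lower in the order: Actr3 was at 183 and 194 CPM (0.38), and Actr2 at 301 and 214 CPM (-0.20, -0.23 to -0.16). Actr2 made up 62.2% of the UMIs of Actr2 and Actr3 in wild-type cells and 52.5% in knockout cells. Arpc5 and Arpc5l, which replace each other, gave Arpc5l a share of 38.4% and 38.5%.

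None of the 5 nucleation promoting and elongation factors passed 1.5-fold. Their ratios ran from -0.53 for Wipf1, which binds and stabilises WASP (100.03 and 56.4 CPM), to 0.27 for Vasp, which feeds monomers to growing filament ends (144 and 142 CPM). Was, the gene of WASP itself, was at 103 and 81.5 CPM, and its interval (-0.10 to 0.02) included the median of all genes.

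Of the 5 monomer-binding genes 2 were higher, and all 5 lay above the median of all genes. Tmsb10, thymosin beta 10 (chromosome 6, 72934330 to 72935737), was at 98.7 CPM (wild-type) and 207 CPM (knockout), a ratio of 1.37 (1.32 to 1.41). Its paralogue Tmsb4x was at 8856 and 10202 CPM, a ratio of 0.50, so the share of Tmsb10 in the pair went from 1.10% to 1.99%. Pfn1, profilin, was at 586 and 784 CPM (0.71, 0.69 to 0.74). Cap1, which recycles monomers from cofilin, had the lowest ratio of the group, 0.09 (0.04 to 0.13).

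Among severing and capping genes 2 of the 5 measured were higher. Capg, a gelsolin-like capping protein of macrophages, was at 19.3 and 26.5 CPM (0.75, 0.63 to 0.87), and Capzb, the beta subunit of capping protein, at 299 and 400 CPM (0.71, 0.68 to 0.74). The alpha subunits of the same protein, Capza1 and Capza2, had ratios of 0.32 and 0.28, the lowest of the group. Cfl1, cofilin, was at 654 and 733 CPM (0.46).

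Coro1b, a coronin that acts on Arp2/3 branches, was the only one of the 4 coronin and drebrin-like genes to pass 1.5-fold. It was at 19.97 and 34.1 CPM, with a ratio of 1.07 (0.95 to 1.18). Coro1a, the main coronin of leukocytes, was at 466 and 557 CPM (0.55) and Coro1c at 28.4 and 19.0 CPM (-0.28, -0.41 to -0.16).

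The bundling and crosslinking genes parted ways. Fscn1, fascin, which packs filaments into tight parallel bundles (chromosome 5, 142946098 to 142958953), was at 311 CPM (wild-type) and 554 CPM (knockout), a ratio of 1.13 (1.10 to 1.16). After each cell had been thinned to 2000 UMIs, 45.7% of wild-type and 65.2% of knockout microglia-like cells had a Fscn1 UMI (83.5% and 89.6% unthinned, median depths 7252.5 and 5694.5 UMIs). In monocyte-like cells, the class lowest in this gene, the shares were 3.90% and 4.07% (median depths 6996 and 5229.5 UMIs). Lcp1, L-plastin, was at 343 and 201 CPM (-0.47, -0.51 to -0.44) and Flna, filamin A, at 34.1 and 21.5 CPM (-0.37). Of the adhesion linkers, Tln1, talin, was at 297 and 213 CPM (-0.19, -0.22 to -0.15).

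The myosins split between light and heavy chains, which also differ in gene length (9.75 to 17.8 kb against 52.1 to 192 kb). All 3 light chains were higher: Myl12b at 59.0 and 112 CPM (1.22, 1.16 to 1.29), Myl12a at 113 and 173 CPM (0.91) and Myl6 at 238 and 332 CPM (0.78). The 4 heavy chains all lay below the median of all genes and within 1.5-fold, from Myo1e, an unconventional myosin of class I, at 20.7 and 11.3 CPM (-0.58, -0.74 to -0.42), through Myo9b (-0.56) and Myo1f (-0.39), to the non-muscle myosin II heavy chain Myh9 at 193 and 122 CPM (-0.37). Vim, vimentin, an intermediate filament protein low in microglia, was at 5.14 and 11.5 CPM, a ratio of 1.46 (1.25 to 1.67). It passed the floor of 10 CPM through the knockout library alone, so its place among the 16 follows from the filter, and 10 cells held 17.1% of its wild-type and 16.3% of its knockout UMIs.

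Marker RNA of other cells also differed between the libraries, higher for some lists and lower or level for others. In microglia-like cells the 12 monocyte markers (none at 0) summed to 46.6 and 79.9 CPM, the 10 border macrophage markers (none at 0) to 43.0 and 84.0 CPM, the 5 erythroid genes to 83.1 and 438 CPM and the 6 neutrophil markers to 7.74 and 16.03 CPM. Within the border macrophage list Pf4 was at 6.06 and 35.8 CPM but Mrc1 at 26.3 and 19.4 CPM. Of the monocyte list, 4 patrolling markers summed to 0.942 and 7.32 CPM and 4 classical markers to 6.90 and 7.06 CPM. Astrocyte markers were at 195 and 158 CPM, endothelial markers at 28.5 and 21.8 CPM and B cell markers at 183 and 182 CPM. NK cell markers were at 0.456 and 5.60 CPM. The 6 mural markers, which include the smooth muscle actin Acta2, were at 2.07 and 1.02 CPM, with Acta2, Myl9 and Cspg4 at 0 in the knockout library. Hspa1a, an inducible heat shock gene, was at 107 and 439 CPM, and the median share of mitochondrially encoded UMIs in kept cells was 1.42% and 0.503%. The part of these in the result was not tested.

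The result was also read at matched depth. Microglia-like cells were split into 5 bins of UMIs per cell, and 11, 15, 15, 15 and 17 members were 1.5-fold higher from the shallowest to the deepest bin, against 24.0%, 14.4%, 13.1%, 14.6% and 15.9% of all genes. Of the 16 members higher over all cells, 14 were also 1.5-fold higher in each of the 4 bins from 2000 UMIs. The summed share of all 44 genes in a cell's UMIs, after thinning to 2000 UMIs, had a median of 2.35% in 4956 wild-type cells and 2.75% in 4210 knockout cells (216 and 310 shallower cells left out). Unthinned medians were 2.35% and 2.76%.

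Cells of the same cluster were compared next. In the 4 microglia-like clusters that held at least 50 cells of both libraries, the members' share of UMIs in wild-type and knockout cells was 2.47% and 2.45%, 2.12% and 2.36%, 2.81% and 2.85%, and 2.78% and 2.84%. The last 2, which held most knockout cells, thus had the higher shares in wild-type cells too. For comparison, the share was 2.38% and 2.83% over all microglia-like cells. Of the 16 members, Fscn1 and Coro1b were 1.5-fold higher by size in all 4 clusters, and Actg1, Arpc4, Tmsb10, Myl12b and Vim in 3. Coro1b rested on 11 knockout UMIs in the cluster of 3305 and 72 cells (0.80, -0.21 to 1.65). It rested on 13 wild-type UMIs in that of 76 and 1625 cells (0.61, -0.17 to 1.53). Its intervals there included the median of all genes. In the other clusters they lay above it, at 0.14 to 1.95 and, on 7 wild-type UMIs, 0.41 to 2.79. Vim rested on 3 knockout UMIs in the first cluster and 2 wild-type UMIs in the third, with intervals that included the median of all genes, and stood at -0.75 (-1.58 to 0.22) in the fourth. Capg went the other way in the fourth cluster, at 104 and 27.4 CPM (-1.76, -2.16 to -1.35), and stood at -0.86 in the first on 3 knockout UMIs. Fscn1 was at 316 and 482, 263 and 494, 362 and 598, and 276 and 533 CPM in wild-type and knockout cells of the 4 clusters. It was also among the leading genes of the third of them, although it had been kept from the clustering. Actg1 was at 851 and 1091, 507 and 759, 843 and 1672, and 995 and 1657 CPM. Actb, Pfn1, Arpc1a and Arpc1b passed in 0 clusters, with Actb between 0.20 and 0.44. Numbers of higher and lower members were 4 and 5, 10 and 3, 11 and 4, and 6 and 8 in the 4 clusters, where 12.9% to 17.1% of all genes were higher and 16.2% to 18.4% lower.

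The members' ratios followed the length of the gene. Spearman's rank correlation between annotated span and relative log2 ratio was -0.71 over the 42 members and -0.40 over 8688 genes in microglia-like cells, as a description across genes of the same 2 libraries. Members under 10 kb had a median ratio of 0.68 (all genes 0.38), those of 10 to 30 kb 0.67 (0.14), those of 30 to 100 kb 0.03 (-0.19) and the 4 of 100 kb or more -0.50 (-0.37). Capzb, at 98.9 kb, was the 1 member over 30 kb that was higher. Set against genes of like span, 13 members were 1.5-fold higher and 0 lower, where 8.75% of all genes were higher. Actb, Arpc1b, Pfn1 and Myl6 lost the call on that scale and Wasf2 gained it (0.59), while Actg1 (0.92), Tmsb10 (1.05), Fscn1 (0.80), Myl12b (1.05), Capzb (1.05) and Vim (1.13) kept it. The heavy chains lay nearer to genes of like span, with Myh9 at -0.03, Myo1f at -0.19, Myo1e at -0.20 and Myo9b at -0.22. So did Lcp1 (-0.13) and Wipf1 (-0.19), while Flna (-0.37) and Tln1 (-0.18) hardly changed.

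**Figure D2:**
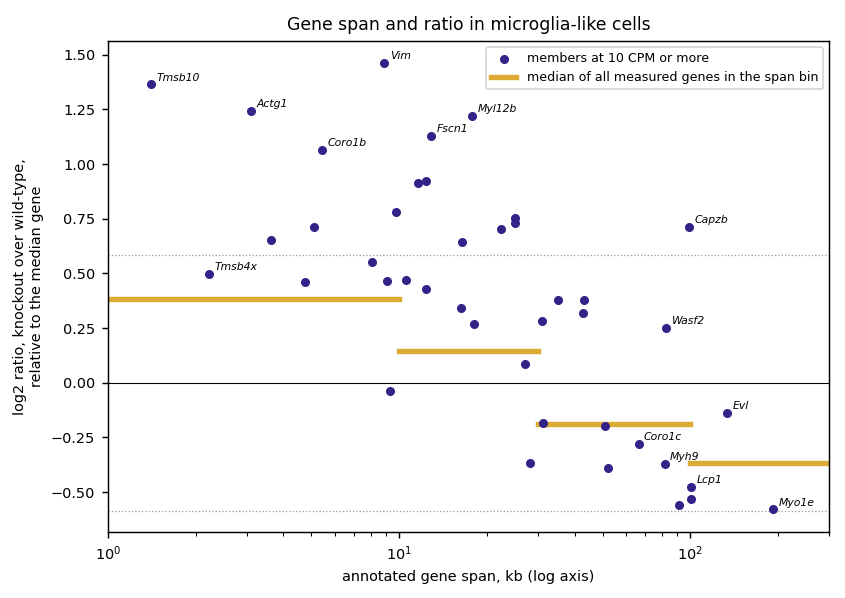
Relative log2 ratio of knockout over wild-type in microglia-like cells against the annotated span of each gene (log axis), with the median of all measured genes in each span bin as bars. The points fall from Tmsb10, Actg1 and Vim at the short end to Myo1e at the long end, and Capzb stands above its bin.

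Members also lie beside each other in the genome, which the list did not use. Of the 44 genes, 4 pairs lie within 1000 kb: Myl12b and Myl12a 1.27 kb apart on chromosome 17, Arpc1a and Arpc1b 5.45 kb and Actb and Fscn1 53.6 kb apart on chromosome 5, and Capg and Tmsb10 394 kb apart on chromosome 6. All 8 of these genes are among the 16 that were higher in microglia-like cells, a pattern noticed after their values were seen and given with no test. How reads shared by near-identical copies, such as Myl12a with Myl12b or Actb with Actg1 and their processed copies, were counted is not given in the sources used here, so the split within such pairs is uncertain.

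In monocyte-like cells 14 of 44 members were higher and 2 lower, where 19.1% of all genes were higher and 21.6% lower (median of all genes -0.28), and the members' median ratio was 0.36. On the plain CPM scale 8 were higher and 7 lower, against 9.4% and 33.8% of all genes. Tmsb10 had the highest ratio, with 2127 CPM in wild-type and 5870 CPM in knockout cells (1.74, 1.66 to 1.83). Both actins were higher (Actg1 2443 and 3724 CPM, 0.89, and Actb 9947 and 13086 CPM, 0.67). The light chains Myl12b (164 and 362 CPM, 1.42), Myl12a (0.96) and Myl6 (0.83) were higher too. So were Arpc5l (0.96), Arpc4 (0.94), Arpc3 (0.83) and Arpc1b (0.80) of the Arp2/3 complex, with Capzb (0.93), Coro1a (0.88), Pfn1 (0.83) and Dbnl, a drebrin-like actin binder (0.61). Myo9b was lower at 86.3 and 40.3 CPM (-0.82, -1.27 to -0.34), and Myo1e rested on 6 and 9 UMIs (-2.21, -3.86 to -0.43) and passed the floor through the wild-type library alone.

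Since the 2 monocyte clusters were mixed differently in the libraries, the patrolling-type cluster was also taken alone, an alternative added after the data were seen. There 16 members were higher and 4 lower of 43 measured, where 23.4% and 24.8% of all genes were, and on the plain CPM scale 3 were higher and 9 lower (13.8% and 35.6% of all genes). The 35 wild-type cells of this cluster held 202670 UMIs. For only 3 of the 16 higher and 0 of the 4 lower members did the counting interval lie wholly beyond 1.5-fold. Tmsb10 was at 1150 and 4300 CPM in the patrolling-type cluster and at 2653 and 8655 CPM in the classical-type cluster, so it was higher in the knockout library in both. Its share of the thymosin pair was 5.45% and 19.2% in the former and 12.9% and 33.8% in the latter. Pfn1, Coro1a, Dbnl and Myl6 were no longer 1.5-fold higher in the patrolling-type cluster alone. Capg differed between the clusters, with 1 wild-type UMI (4.93 CPM) in the patrolling-type and 409 CPM in the classical-type cluster, and it passed the floor in the former through the knockout library alone. In all monocyte-like cells the microglia markers summed to 2005 and 1611 CPM.

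**Figure D3:**
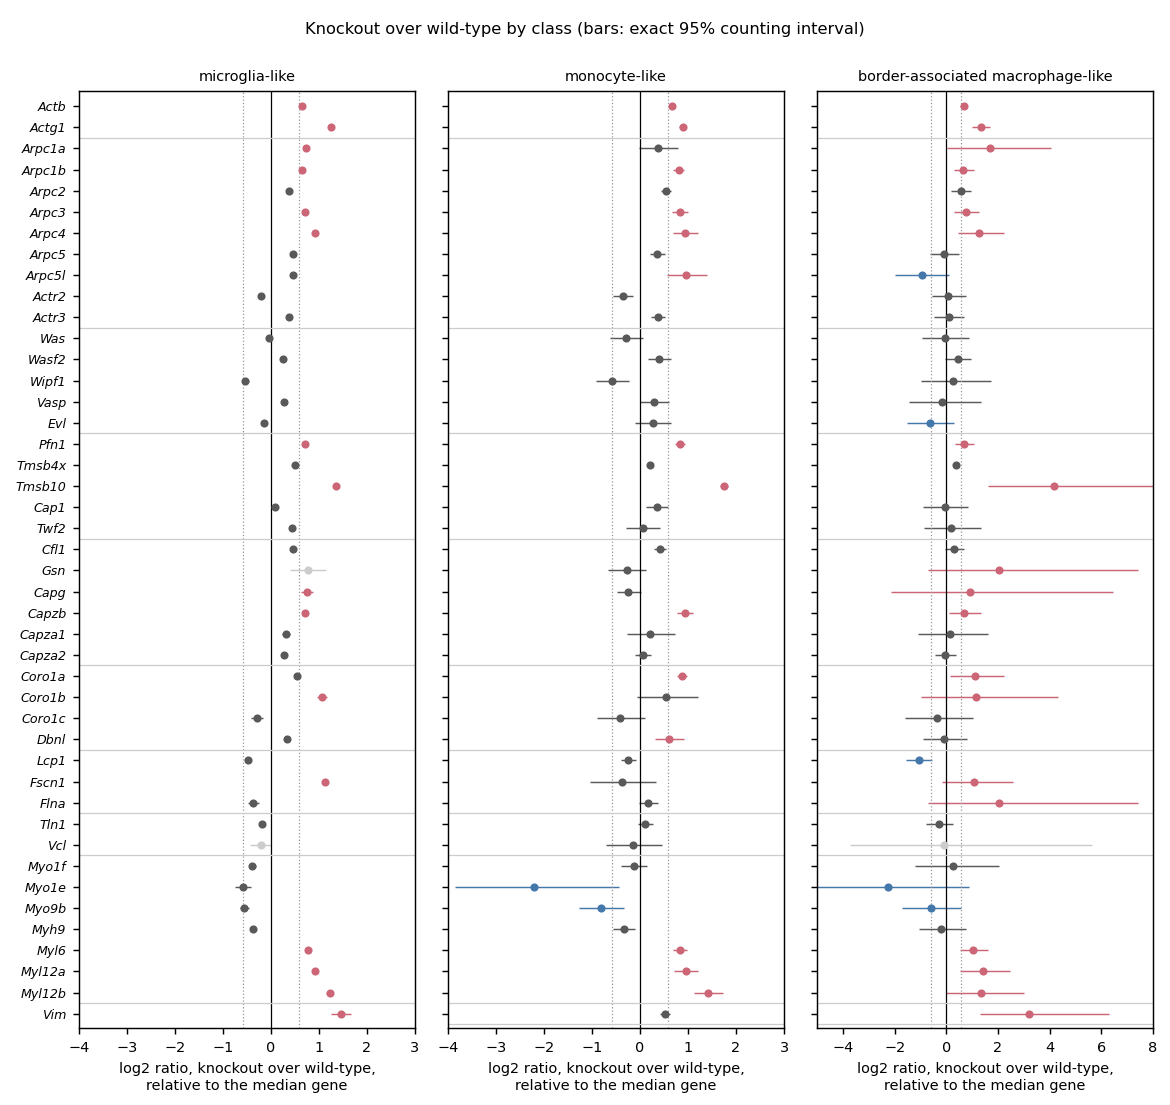
Relative log2 ratio of knockout over wild-type for the 44 genes in the 3 classes with exact 95% counting intervals, red where 1.5-fold higher, blue where 1.5-fold lower, dark grey within and pale grey under the floor, with bars that leave a panel ending at its edge. Actg1, Tmsb10 and the 3 myosin light chains lie right of the 1.5-fold line in every panel, and the intervals of the 24 wild-type macrophage-like cells are wide.

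Cells like border-associated macrophages were few (116536 UMIs in the wild-type library), and their counting intervals were wide. By size 19 of 43 members were higher and 5 lower, where 27.8% and 29.2% of all genes were (median of all genes -0.28), and on the plain CPM scale 14 were higher and 6 lower (18.5% and 38.3% of all genes). The members' median ratio was 0.36. Tmsb10, Gsn, Flna and Capg, each with 1 wild-type UMI (8.58 CPM), passed the floor through the knockout library alone and had to be among the 19, and Myo1e passed through the wild-type library alone. Only for Actg1, Tmsb10 and Vim did the counting interval lie wholly beyond 1.5-fold. Actg1 was at 644 and 1324 CPM (1.32, 0.98 to 1.69). Tmsb10 had 1 and 57 UMIs (4.15, 1.62 to 9.48) and Vim 2 and 59 UMIs (interval 1.29 to 6.28). Actb (0.66), Arpc1b (0.66), Arpc3 (0.76), Arpc4 (1.28), Pfn1 (0.70), Capzb (0.69), Coro1a (1.11), Myl6 (1.05), Myl12a (1.42) and Arpc1a (1.69) were also higher, with intervals that excluded the median of all genes. The others past 1.5-fold, Gsn, Capg, Flna, Coro1b, Fscn1 and Myl12b above and Arpc5l, Evl, Myo1e and Myo9b below, had intervals that included it. Lcp1 was lower at 498 and 196 CPM (-1.06, -1.55 to -0.56). In these cells the microglia markers summed to 4617 and 4561 CPM.

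Monocyte-like cells held more RNA of these genes than either kind of brain macrophage. UMI sums of the 3 classes in both libraries were compared with edgeR's quasi-likelihood test with the library as a block (Benjamini-Hochberg threshold 0.05 over 11181 genes, 2 residual degrees of freedom). Its p-values measure the spread between 6 sums of 2 libraries, not between animals. In monocyte-like over microglia-like cells 38 of 44 members were higher and 3 lower, where 25.8% of all genes were higher and 29.6% lower. The median log2 fold change of the members was 1.27 and that of all genes -0.16. Monocyte-like cells had the highest CPM of the 3 classes in both libraries for 35 members. The members made up a median of 5.1% (wild-type) and 5.95% (knockout) of a monocyte-like cell's UMIs after thinning, against 2.35% and 2.75% in microglia-like cells.

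**Figure D4:**
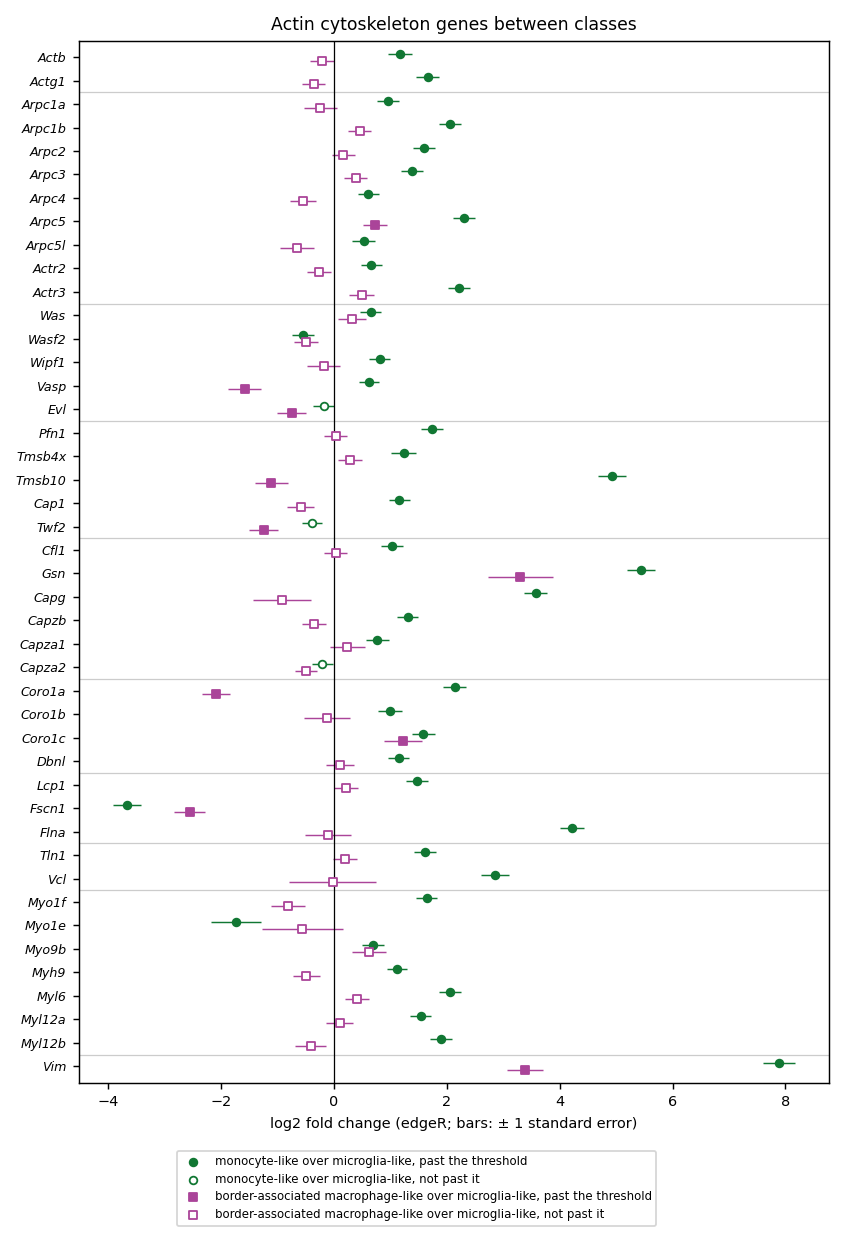
Log2 fold changes (edgeR, with 1 standard error) of the 44 genes in monocyte-like cells (circles) and cells like border-associated macrophages (squares) over microglia-like cells, filled where the adjusted p passed 0.05. Circles lie to the right for all but Fscn1, Wasf2, Myo1e, Evl, Twf2 and Capza2, and squares lie near 0 except for a few genes such as Vim, Gsn, Coro1a and Fscn1.

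Vimentin led this contrast, at 5.14 and 11.5 CPM in microglia-like and 1350 and 1597 CPM in monocyte-like cells of the wild-type and knockout library (log2 fold change 7.89 ± 0.28 SE, edgeR adjusted p = 3.15e-31). Gsn, gelsolin, followed, at 2.04 and 2.85 CPM against 109 and 74.0 CPM (5.44 ± 0.25, edgeR adjusted p = 1.15e-26). Tmsb10 (4.92 ± 0.25), Flna (4.21 ± 0.21), Capg (3.58 ± 0.20) and Vcl, vinculin (2.86 ± 0.25), made up the rest of the top 6, with edgeR adjusted p from 9.81e-25 for Tmsb10 to 8.94e-15 for Vcl. All 9 Arp2/3 subunits were higher, from Arpc5l (0.53) to Arpc5 (2.31), as were both actins, all 4 coronin and drebrin-like genes and 6 of the 7 myosins. The classical-type cluster held more vimentin than the patrolling type (1865 against 395 CPM in the wild-type library, 3459 against 547 CPM in the knockout library), and filamin A went the other way (255 against 730 CPM and 208 against 496 CPM).

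Fascin ran against the rest of the list. It was at 39.7 and 25.1 CPM in monocyte-like cells and 311 and 554 CPM in microglia-like cells (log2 fold change -3.66 ± 0.25, edgeR adjusted p = 1.04e-18). Myo1e (-1.73 ± 0.44, edgeR adjusted p = 0.000795) and Wasf2, the WAVE2 gene (-0.55 ± 0.19, edgeR adjusted p = 0.0114), were the other 2 that were lower. Evl, Twf2 and Capza2 did not pass (adjusted p = 0.419, 0.0712 and 0.364 in edgeR), with log2 fold changes of -0.18, -0.39 and -0.20.

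In cells like border-associated macrophages most of these genes did not pass against microglia-like cells. There 4 of 44 members were higher and 6 lower, where 7.24% and 6.53% of all genes were, and 34 did not pass. Vim (3.38 ± 0.32), Gsn (3.30 ± 0.58), Coro1c (1.22 ± 0.34) and Arpc5 (0.73 ± 0.22) were higher. Fscn1 (-2.55 ± 0.28), Coro1a (-2.09 ± 0.25), Vasp (-1.58 ± 0.29), Twf2 (-1.25 ± 0.25), Tmsb10 (-1.11 ± 0.30) and Evl (-0.75 ± 0.25) were lower. The edgeR adjusted p of these 10 ran from 7.09e-13 for Vim to 0.0339 for Evl. In the wild-type library alone, where only size can be read, 13 of 42 members were 1.5-fold lower and 5 higher, where 27.3% of all genes were lower and 27.8% higher. With mixed cells kept edgeR gave 2 higher and 0 lower members (2 at an unadjusted p under 0.05, and 4 of 12770 genes lower), and with coarser clusters 11 higher and 7 lower. Tmsb10 was at 8.58 CPM against 98.7 CPM in wild-type and at 126 CPM against 207 CPM in knockout cells, and its fold change turned to 1.83 with coarser clusters. Over macrophage-like cells, monocyte-like cells had 35 higher members and 1 lower, Fscn1, where 15.5% and 12.3% of all genes were. Tmsb10 had the highest fold change there (6.03 ± 0.30), followed by Vim (4.51 ± 0.29), Capg (4.49 ± 0.40), Flna (4.32 ± 0.32), Coro1a (4.23 ± 0.25) and Vcl (2.88 ± 0.59), and Fscn1 stood at -1.11 ± 0.33, with edgeR adjusted p from 2.02e-23 for Tmsb10 to 0.00846 for Fscn1.

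Shares within paralogue pairs also differed by class. In wild-type cells Tmsb10 made up 1.10% of the thymosin pair in microglia-like and 10.3% in monocyte-like cells, and 24.9% in knockout monocyte-like cells. Actr2 made up 62.2% of the Arp2 and Arp3 pair in wild-type microglia-like and 37.4% in wild-type monocyte-like cells, and 26.5% in knockout monocyte-like cells. Gamma-actin made up 19.7% and 22.2% of the actin pair in monocyte-like cells of the 2 libraries.

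**Figure D5:**
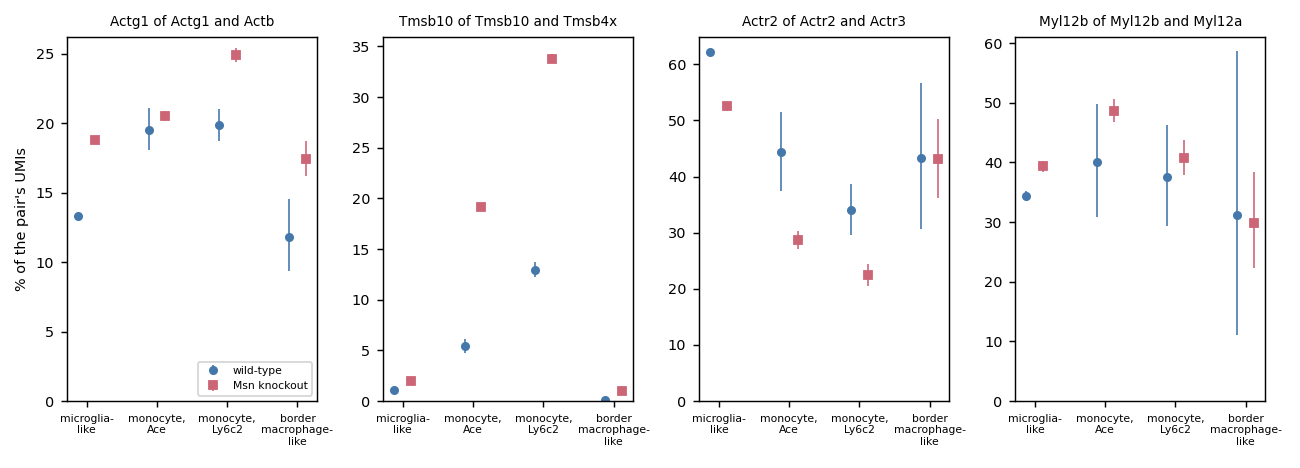
Share of the first gene in the UMIs of 4 pairs (percent, with exact 95% binomial intervals) in microglia-like cells, the 2 monocyte clusters and cells like border-associated macrophages, for the wild-type (circles) and the knockout library (squares). The share of Tmsb10 is higher in the knockout library in all 4 groups of cells, and that of Actr2 is lower in microglia-like cells and both monocyte clusters.

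Genes that work beside this machinery were followed in 4 further lists in microglia-like cells, read against the same 14.7% higher and 12% lower. None of 5 measured WAVE complex genes passed, from Abi3 (375 and 412 CPM, 0.43) to Abi1 (136 and 80.1 CPM, -0.47). Of the SRF list Srf was under the floor at 5.45 and 5.41 CPM, and its cofactors Mrtfa (20.4 and 12.6 CPM, -0.40) and Mrtfb (10.4 and 7.09 CPM, -0.27) did not pass. In the ERM list Ezr, ezrin, was at 9.77 and 13.1 CPM (0.72), past the floor through the knockout library alone, and Rdx, radixin, was at 181 and 156 CPM (0.08). Of 9 tubulins 6 were higher and 0 lower, led by Tuba1a at 159 and 318 CPM (1.30), with Tubb2b the lowest (37.3 and 39.7 CPM, 0.39).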

How the data were processed

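Single-cell RNA was counted in 2 libraries. The deposited values are UMI counts, whole numbers from Cell Ranger 7.0.0 per the file headers, while the labels' protocols name version 6.0. Reads were aligned to GRCm39 and Seurat was used for quality control, per the labels' protocols. Counting of intronic reads is not given in the sources used here. For filtering, barcodes were kept if they had 500 genes or more and mitochondrial UMIs up to 10%. Cells were clustered with scanpy 1.11.5 (2000 variable genes, 30 principal components, 15 neighbours, Leiden resolution 0.6). Names came from marker lists, by a rule written once the clusters had been seen. The doublet caller marked 3 and 0 barcodes, a sign that it had not worked, so doublets remained. Cells of other classes with microglia markers at 9642 CPM or more (113 wild-type, 478 knockout) were left out as mixed, and 178 and 1517 cells stayed unnamed.

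UMIs were summed per library and class. With 1 library per genotype no test was made. A member was called by size at 1.5-fold, with exact 95% Poisson or binomial intervals for counting error. Classes were compared with edgeR 4.0.16 (TMM, filterByExpr, common dispersion 0.0192). On simulated counts for monocyte-like over microglia-like (10744 genes), 91.9% of 4-fold changes and 20.6% of 2-fold changes were recovered, and 3.48% of 115 calls were false. The simulation used a dispersion higher than the fitted one and no difference between libraries, so these rates hold for that setting only. Alternatives included DESeq2 1.42.0. The genes given full values were the highest and lowest of each group in microglia-like cells, those past 1.5-fold in any class, and the 6 highest and lowest called per class contrast. The members, lists and markers were chosen with earlier results of these data known. Coordinates came from GENCODE on GRCm39, where 54749 of 55357 genes matched by identifier, and promoters from RefSeq on GRCm38.p6. Some results are not reported here.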

Additional observations from a re-analysis of the deposited data

Results flagged for a closer look

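Arpc5l, the alternative ARPC5 subunit of the Arp2/3 complex, had relative log2 ratios of knockout over wild-type of 0.47 in microglia-like cells and 0.96 in monocyte-like cells but -0.96 in cells like border-associated macrophages. It stands out because the classes went opposite ways, and the difference was not tested. The macrophage value rested on 14 and 23 UMIs, its counting interval (-1.98 to 0.11) included the median of all genes, and it turned to 0.60 when cells with high microglial marker RNA were kept.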

How the results depend on the processing

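Of 214 recomputed counts and medians, 174 stayed within 1.5 times the reported count or near the reported median. On plain CPM the higher and lower members and median were 8, 7 and 0.15 in microglia-like, 8, 7 and 0.079 in monocyte-like cells, and the macrophage median was 0.074. Against genes of like span the microglia median was 0.26 and macrophages had 3 lower. Microglia-like cells, with 0 lower as reported, had 2 lower with a floor of 30 CPM or thinned cells, and 1 with at most 5% or any mitochondrial share, gated classes, without the highest doublet scores, or at 5000 to 10000 UMIs. With mixed cells kept, monocytes had 28 higher, 1 lower and a median of 0.82, and macrophages 0 lower. Monocytes had 1 lower after thinning and 4 in the patrolling-type cluster. Macrophages had 3 lower with no floor, no mitochondrial filter, without the highest doublet scores or thinned (median then 0.93). Of the 16 microglia calls, 12 held under each alternative in which they passed the floor, apart from plain CPM (12 alternatives, but 11 for Capg and 10 for Vim), and Actb, Arpc1b, Pfn1 and Myl6 did not. Actb and Arpc1b were also lost with the floor of 30 CPM.

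Between classes, DESeq2 gave 1 lower member in monocytes over microglia and 0 over macrophages (where edgeR gave 1, and 2 with at least 1000 genes, at most 5% mitochondrial UMIs, resolution 0.3, without the highest doublet scores or the patrolling-type cluster alone). Macrophages over microglia had 11 higher at resolution 0.3, 2 with mixed cells kept, at 5000 to 10000 UMIs or thinned, and 0 lower with mixed cells kept. Without either library no residual degrees of freedom remain, so members were read by 1.5-fold size in the other one: 9 of 43 to 13 of 42 were lower there, with 13 without the knockout library, where 20.8% to 27.3% of all genes were lower. Reversals all concerned macrophages. Against wild-type, Gsn turned to -1.90 at resolution 0.3 and -0.53 thinned, Flna to -0.28 at resolution 0.3, -0.28 with mixed cells kept and -0.26 thinned, Arpc5l to 0.60 with mixed cells kept and Myo9b to 0.74 thinned. Over microglia, Tmsb10 turned to 1.83, Capg to 1.38 and Flna to 0.87 at resolution 0.3, Tmsb10 to 0.16 when gated, and monocytes over macrophages gave -0.18 for Gsn at resolution 0.3. The cause was not tested. The 24 wild-type macrophage-like cells held 116536 UMIs in all, which limits their precision. No paired analysis was possible because each genotype has 1 library.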
